A study of Homo sapiens with 7 samples.

Results

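Cells given camptothecin for 4 h were set against cells given its solvent for the same 4 h. The comparison uses 2 of the 7 arrays of the series: HCT116 cells in 10 µM camptothecin (CPT) for 4 h, and HCT116 cells in 0.1% DMSO for 4 h, with 1 array on each side. HCT116 is an established human colon carcinoma line, and the other 5 arrays read CPT at 1, 2, 15 and 20 h and DMSO at 20 h. Each array is the ExonHit Human Splice Array, which reads a gene through many separate probe sets. A gene's level here is the median log2 value of its probe sets whose mean over the 7 arrays was above 2.95, and a gene needed at least 3 of them. This left 16147 named genes. A gene is called higher or lower where the CPT 4 h level minus the DMSO 4 h level was past 1 log2 unit, which is 2-fold, and 505 genes were: 224 higher and 281 lower. With 1 array a side there is no test and no replicate check, nothing in the labels says which cultures the RNA came from, and every difference below compares these arrays, not the conditions.

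Camptothecin traps topoisomerase I (TOP1) on DNA after the enzyme has cut 1 strand. The trapped enzyme blocks RNA polymerases that read the gene and turns into a DNA break when a replication fork meets it. Cells answer by halting DNA synthesis and by switching on stress genes. Replication-dependent histone genes supply the histones that package newly copied DNA, are short, have no introns, and their mRNA is made in S phase and degraded quickly when DNA synthesis stops. Immediate early genes, such as the AP-1 genes JUN and FOS, are short genes that answer stress without new protein synthesis.

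The genes past 1 log2 unit made up 3.13% of all tested genes, 1.39% higher and 1.74% lower. Over all 16147 genes the median difference was 0.10 with an SD over genes of 0.43, and 79.8% lay within 0.5 of 0. The solvent arrays are a pair without the drug, though not a time-matched one. Between DMSO 20 h and DMSO 4 h, 176 genes were higher (1.09%) and 97 lower (0.601%), with a median of 0.08 and an SD of 0.39. Differences between arrays and differences with time, 20 h against 4 h, cannot be told apart in that pair, here or wherever it is used below. The CPT and the solvent comparison both use the DMSO 4 h array and so are not independent. In the solvent pair the median was 0.51 for the 224 higher genes and −0.48 for the 281 lower genes, beside 0.08 for all genes. The called genes thus also differed the same way, by a smaller amount, between the solvent arrays. The array medians were 2.90 for CPT 4 h and 2.87 for DMSO 4 h, and after subtraction of an array's own median over genes, which removes the shift of 0.10, 158 genes were higher and 388 lower. Most calls sat near the threshold, since 135 of the 224 higher genes (60.3%) and 146 of the 281 lower genes (52.0%) were between 1 and 1.25. Past 2 log2 units there were 12 higher and 18 lower genes. Just inside the threshold were ICE1 (−1.005) and TPST1 (−1.003) on the lower side and ACAT2 (1.0002), THEM5 (1.0004) and RBP2 (1.002) on the higher side. Just outside were ZNF30 (−0.9987), CDK13 (−0.9978) and GTF2B (−0.9960), and DYNLL2 (0.9990), ROM1 (0.9981) and PEAK3 (0.9975).

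**Figure D1:**
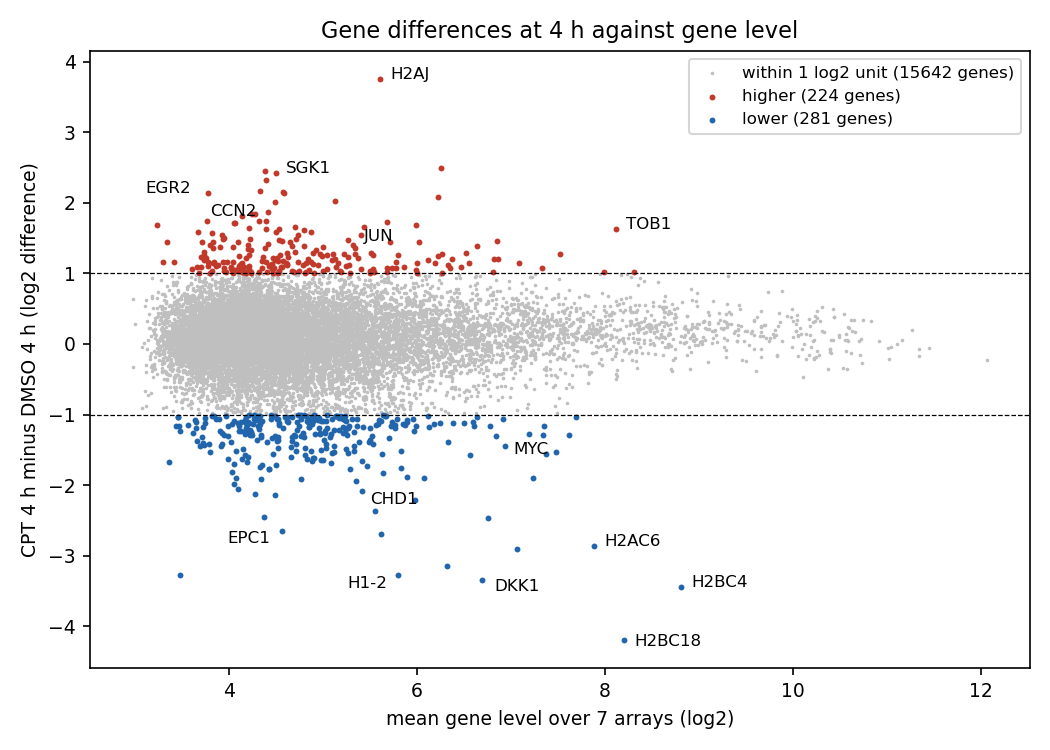
Each point is 1 of 16147 genes, with its mean log2 level over the 7 arrays on the horizontal axis and the log2 difference CPT 4 h minus DMSO 4 h on the vertical axis. Dashed lines mark 1 log2 unit; the 224 higher genes are red and the 281 lower genes blue. The histone genes H2BC18 (−4.19) and H2BC4 (−3.44) lie farthest down and H2AJ (3.76) farthest up.

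Replication-dependent histone genes held the largest differences of the comparison. Of 64 listed genes 17 were measured: 10 were lower by over 1 (58.8%, beside 1.74% of all genes) and 1 was higher. The list median was −1.72 beside 0.10 for all genes. Among the 15 genes with the largest decrease, 8 were histone genes. The same list had a median of 0.05 for DMSO 20 h minus DMSO 4 h, with 0 members past 1 in either direction. H2BC18, which encodes a histone H2B, stood at 10.73 in DMSO 4 h and 10.87 in DMSO 20 h. In CPT it stood at 7.65, 7.32, 6.54, 7.34 and 6.93 at 1, 2, 4, 15 and 20 h. All 5 CPT arrays were thus below both DMSO arrays, and the 4 h pair differed by −4.19, an 18.3-fold lower level. The median of its 11 probe set differences was smaller, −2.84. H1-2, a linker histone gene, stood at 7.96 in DMSO 4 h and 7.68 in DMSO 20 h, and at 4.53, 4.59, 4.68, 5.58 and 5.54 over the CPT times. Its 1, 2 and 4 h values lay between 4.53 and 4.68, so the low level was there on the 1 h array already. H2AC6, a histone H2A gene, read 9.88 and 10.09 in the DMSO arrays, then 6.83, 6.26, 7.01, 7.78 and 7.29 in CPT. H2BC21 read 8.26 and 8.31 in DMSO and between 5.59 and 6.72 in CPT.

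The other lower members at 4 h were H2BC4 (−3.44), H2BC15 (−3.14), H4C8 (−2.90), H2BC11 (−2.37), H1-3 (−1.72) and H2AC25 (−1.55). Their support differs: H2BC21 rests on 37 probe sets, H2BC11 on 33 and H2AC6 on 25, whereas H2BC4 and H1-3 rest on 3 each. Nor did all probe sets of the first 3 follow: 64.9% of those of H2BC21, 78.8% of H2BC11 and 68.0% of H2AC6 were lower, beside a median of 62.3% with the gene's own sign over all genes. For H1-2 100% of 5 were lower, for H2BC18 90.9% of 11 and for H2BC15 85.7% of 7. For H1-3 the median of its probe set differences was 0.08, so the gene value and its probe sets do not point the same way. Members that were not past the threshold were H1-1 (−0.99), H2AC11 (−0.63), H1-4 (−0.45), H2BC5 (−0.22), H2BC12 (0.01) and H3C6 (0.03), and H4C15 was higher (1.21, on 4 probe sets). When dim probe sets were kept the list had a median of 0.16, with H2BC18 at 0.38, H4C8 at 0.33 and H2AC6 at 0.62, while H1-2, H2BC15 and H2BC21 were lower by over 1 in every setting tried that measured them. Histone genes are near-identical copies of one another, and the array may not tell single members apart. In bulk RNA fewer cells in S phase and less histone mRNA per cell cannot be told apart.

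Several of these genes carry the octamer ATTTGCAT before their start, a motif known from histone H2B promoters as a binding site of the factor OCT1. The 120 bases before the annotated start are shown for 3 lower H2B genes, for H2BC12, an H2B gene that holds the octamer and was not lower, and for H2AJ, whose level was higher. Sequences are from RefSeq, build GRCh38.p14, written 5′ to 3′ on the gene's strand, with the octamer in capitals.
H2BC18 (chr1:149812371-149812490, minus strand): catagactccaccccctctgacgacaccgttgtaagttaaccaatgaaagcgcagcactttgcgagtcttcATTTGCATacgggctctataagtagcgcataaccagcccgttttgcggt
H2BC21 (chr1:149886683-149886802, minus strand): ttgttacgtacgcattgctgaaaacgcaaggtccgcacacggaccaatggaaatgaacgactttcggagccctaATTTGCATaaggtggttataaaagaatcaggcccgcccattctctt
H2BC11 (chr6:27132796-27132915, minus strand): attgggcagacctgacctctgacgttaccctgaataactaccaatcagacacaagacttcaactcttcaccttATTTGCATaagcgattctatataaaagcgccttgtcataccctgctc
H2BC12 (chr6:27146859-27146978, minus strand): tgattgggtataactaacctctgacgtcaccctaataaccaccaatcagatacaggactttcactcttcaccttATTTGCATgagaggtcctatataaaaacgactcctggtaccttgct
H2AJ (chr12:14774285-14774404, plus strand): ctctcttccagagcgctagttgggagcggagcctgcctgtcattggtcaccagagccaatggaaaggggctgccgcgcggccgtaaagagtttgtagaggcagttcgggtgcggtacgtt
In the 4 H2B promoters shown, 38 to 41 bases lie between the octamer and the start. Searched on both strands in the 250 bases before the start, it was in 5 of the 10 lower listed histone genes (H2BC18, H2BC4, H2AC6, H2BC21 and H2BC11) and in 2 of the 7 that were not lower (H2AC11 and H2BC12). H2BC15 (−3.14), also a lower H2B gene, held none there, and in H2BC4 115 bases lie between the octamer and the start. H2BC4 and H2AC6 face away from each other and hold the same octamer at chr6:26124042-26124049, and H2BC11 and H2AC11 likewise share the one at chr6:27132835-27132842. Counted by gene as well, the octamer was in 554 of 27305 genes with a RefSeq promoter (2.03%) and in 244 of 12827 tested genes with one (1.90%). Of all lower genes with a promoter it was in 11 of 231 (4.76%), and these 11 include the 5 lower listed histone genes. A match is a description of letters in a window and neither a site nor a cause, and H2AC11 and H2BC12 hold it without being past the threshold.

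Among 9 measured replication-independent histone variants, whose genes are read outside S phase too, 1 was past the threshold, and it was the largest increase of all genes. H2AJ encodes the H2A variant H2A.J. It stood at 3.39 in DMSO 4 h and 3.93 in DMSO 20 h, and at 4.51, 5.26, 7.14, 7.44 and 7.61 in CPT at 1, 2, 4, 15 and 20 h. Every CPT array was above both DMSO arrays and each later CPT array was higher than the one before. The 4 h difference of 3.76 comes from 10 probe sets that do not move alike: 60.0% of them were higher, and the median of their own differences was 1.80. The other 8 variants lay between −0.48 (H2AX, the variant that is phosphorylated at DNA breaks) and 0.52 (MACROH2A1).

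**Figure D2:**
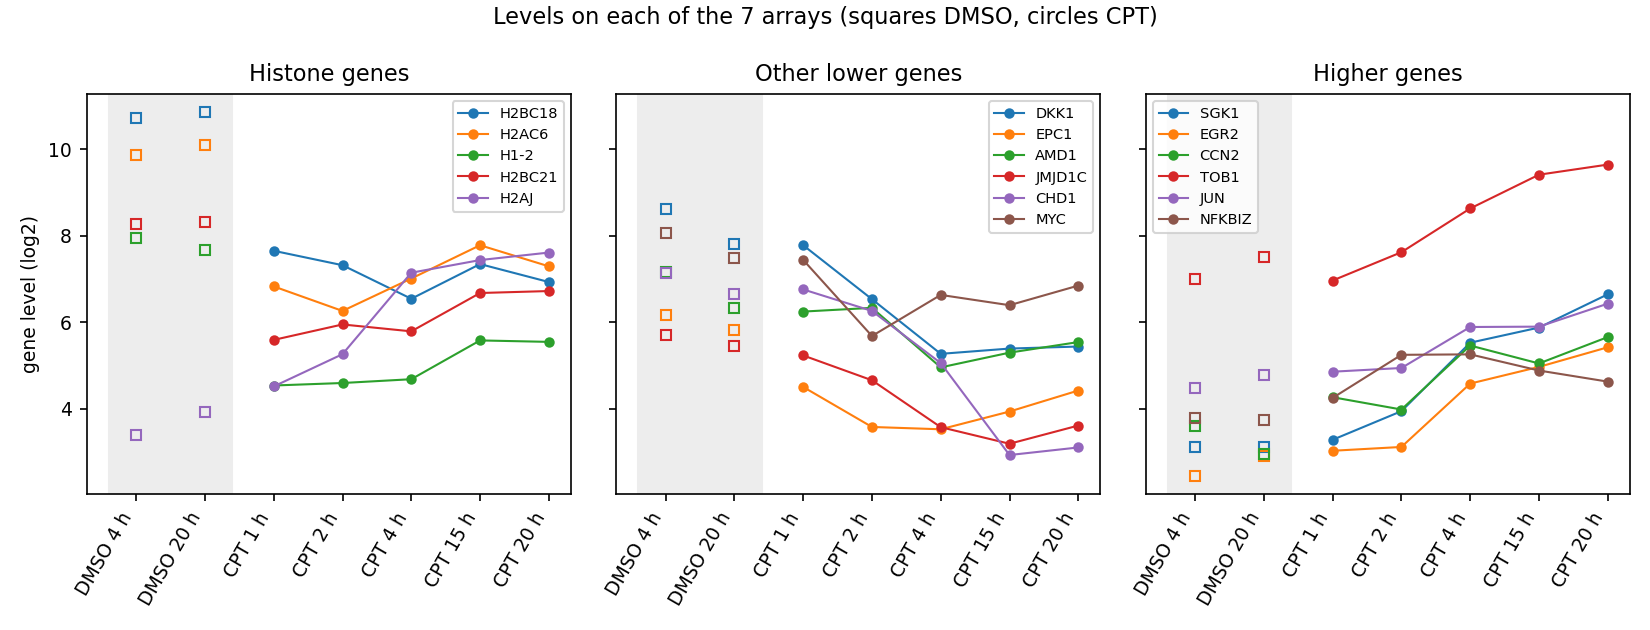
Log2 levels of 17 genes on each of the 7 arrays; open squares in the grey band are the DMSO arrays and lines join the CPT arrays by time, with 1 array for each point. H2BC18, H2AC6, H1-2 and H2BC21 are already low at 1 h, H2AJ, TOB1 and SGK1 are higher at each later time from 2 h on, and CHD1 goes from 6.76 at 1 h to 5.05 at 4 h and 2.93 at 15 h.

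Chromatin regulators, the enzymes and remodellers that write, erase and read histone marks, made up the other list with many lower members. Of 57 measured members 10 were lower by over 1 (17.5%, beside 1.74% of all genes) and 0 were higher, and 46 of the 57 differences were below 0. The median was −0.41, beside 0.10 for all genes and −0.15 for the list in DMSO 20 h minus DMSO 4 h. This list, like the others, was chosen with earlier results of these data known. EPC1, a subunit of the NuA4 histone acetyltransferase, stood at 6.17 in DMSO 4 h and 5.82 in DMSO 20 h. In CPT it read 4.50, 3.58, 3.52, 3.93 and 4.42 over time, below both DMSO arrays on all 5. Its 4 h difference was −2.65. Of its 85 probe sets 95.3% were lower by any amount, with quartiles of −3.33 and −1.17, and with no filter the gene's difference was −1.11. CHD1, a remodeller that binds a histone mark of active promoters, stood at 7.14 and 6.64 in the DMSO arrays. It read 6.76 and 6.26 at 1 and 2 h, 5.05 at 4 h, and 2.93 and 3.10 at 15 and 20 h. The 1 h array thus overlapped the DMSO arrays and the later ones did not, with 97.3% of 182 probe sets lower at 4 h.

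The remaining lower members were EPC2, a relative of EPC1 (−1.46), the remodeller genes CHD2 (−1.36) and CHD7 (−1.20), the acetyltransferase genes EP300 (−1.27) and KAT6A (−1.10), the demethylase gene KDM6A (−1.23), the methyltransferase gene KMT2C (−1.15) and ARID2, of the PBAF remodelling complex (−1.06). Close to the threshold without passing it were ARID1A (−0.99), KDM4C (−0.93) and CHD9 (−0.92). The largest positive difference of the list was HDAC1 (0.64), a histone deacetylase gene. Outside the list, JMJD1C, a gene of the jumonji demethylase family, was 4.42-fold lower: it read 5.71 and 5.46 in DMSO and 5.23, 4.66, 3.57, 3.19 and 3.61 in CPT. All of its CPT values were below both DMSO values, and 91.4% of its 116 probe sets were lower at 4 h.

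Other large decreases were in genes of mixed function. DKK1, which encodes a secreted inhibitor of Wnt signalling, was the only one of 35 measured Wnt pathway genes past the threshold. It stood at 8.62 in DMSO 4 h and 7.82 in DMSO 20 h, and at 7.78, 6.53, 5.27, 5.39 and 5.44 in CPT. The 1 h value was close to DMSO 20 h, and the 4 h value was 10.2-fold below DMSO 4 h, a difference of −3.35. The median of its 27 probe set differences was −2.76. BDNF, a neurotrophin gene, read 7.47 and 6.71 in DMSO and 6.47, 6.09, 4.77, 4.05 and 3.76 in CPT, lower at each later time, though without the filter on dim probe sets its 4 h difference was 0.07. PDE4B, which encodes an enzyme that breaks down cyclic AMP, read 5.90 and 5.76 in DMSO and 4.64, 3.64, 3.44, 3.71 and 3.54 in CPT. AMD1, whose enzyme supplies the precursor for polyamines, read 7.17 and 6.32 in DMSO, 6.25 and 6.33 at 1 and 2 h, and 4.95 at 4 h, so its early arrays lay at the level of DMSO 20 h. ASPN, a matrix proteoglycan gene, shows how far the controls can differ. It read 5.58 in DMSO 4 h and 3.33 in DMSO 20 h, and 2.73, 5.18 and 2.30 at 1, 2 and 4 h, on 5 probe sets.

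MYC, a transcription factor gene that drives growth, stood at 8.07 in DMSO 4 h, 7.48 in DMSO 20 h and 7.44, 5.68, 6.63, 6.39 and 6.85 in CPT. Its lowest value was at 2 h, and the 4 h difference was −1.44. Of the TGF-beta and BMP pathway 2 of 27 measured genes were lower, the ligand gene BMP4 (−1.82) and the ubiquitin ligase gene SMURF1 (−1.03), and BAMBI, a decoy receptor gene, was higher (1.13). Other lower regulators were TGIF1 (−1.56), a repressor in TGF-beta signalling, E2F3 (−1.75), which drives S phase genes, AJUBA (−1.66) and MOB1B (−1.09) of the Hippo pathway, ERRFI1 (−1.29), which restrains the EGF receptor, and FGFR2 (−1.13), a growth factor receptor. DMSO 20 h minus DMSO 4 h was −1.23 for AJUBA, and CPT 4 h minus DMSO 20 h was −0.43 for AJUBA and −0.09 for MOB1B. Of the 21 measured Hippo pathway genes 2 were lower by over 1 in the solvent pair as well, AJUBA and NF2. For E2F3, FGFR2 and SMURF1 the differences against DMSO 20 h were −0.91, −0.37 and −0.36. MOB1B has weak support, since 50% of 24 probe sets were lower and the median of their differences was 0.02.

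RNA processing genes were mostly within the threshold, as were genes at large, of which 1.39% were higher and 1.74% lower. Each list is small, and nothing is read from its share. None of 53 core spliceosome and exon junction complex genes was past 1 (median 0.11), near the share of 3.13% over all genes. LSM5 came closest (0.98). Against the mean of both DMSO arrays LSM5 was past it (1.22), and 0.31 by the median of its probe set differences. Of 24 SR proteins and SR kinases, which guide splice site choice, 3 were lower (12.5%). These were CLK1 (−1.44), a kinase of SR proteins, DYRK1A (−1.33), a kinase of splicing factors among others, and SRSF4 (−1.31). CLK1 read 5.80 and 5.15 in DMSO, 4.71, 4.00 and 4.36 at 1, 2 and 4 h, and 5.74 and 6.06 at 15 and 20 h. It was thus below both DMSO arrays early and above DMSO 20 h late. RBM5 was the 1 lower gene of 39 hnRNP and other splicing regulators, at 6.19 in DMSO 4 h, a DMSO 20 h value that differed from it by −0.11, and 5.97, 5.11, 4.75, 4.38 and 4.82 in CPT. In mRNA 3′ end processing, 22 genes were measured, with 9.09% lower and 4.55% higher. The lower 2 were NPAT (−1.06), a coactivator of histone gene transcription, and CASP8AP2 (−1.06), whose protein FLASH takes part in histone pre-mRNA processing, and the higher 1 was CLP1 (1.15), an RNA kinase gene of the cleavage machinery. NPAT read 5.46 and 5.14 in DMSO and 5.07, 4.40, 4.40, 4.32 and 4.59 in CPT.

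Immediate early genes stood on the higher side. Of 25 measured AP-1 and immediate early genes 8 were higher by over 1 (32%, beside 1.39% of all genes) and 0 lower. The list median was 0.57, beside 0.10 for all genes. For DMSO 20 h minus DMSO 4 h, 2 members were higher, 0 lower and the list median was 0.02. JUN, an AP-1 subunit, stood at 4.48 in DMSO 4 h and 4.77 in DMSO 20 h. In CPT it read 4.85, 4.94, 5.89, 5.90 and 6.43, above both DMSO arrays throughout, and 2.65-fold higher at 4 h. EGR2, a zinc finger transcription factor gene, read 2.44 and 2.90 in DMSO and 3.02, 3.11, 4.58, 4.97 and 5.42 in CPT, and most of its difference lay between the 2 and 4 h arrays. CCN2, which encodes a secreted matrix protein and is also a target of the Hippo pathway factor YAP, read 3.59 and 2.94 in DMSO and 4.26, 3.98, 5.46, 5.04 and 5.66 in CPT. For CCN2 the 48 probe sets had a median difference of 0.84, below the gene value of 1.87. Its 4 h difference was 0.37 with the stricter filter on dim probe sets and 1.19 with no filter.

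The other higher members were IER2 (1.73), the AP-1 subunit genes FOSB (1.16), FOS (1.15) and JUNB (1.15), and the transcription factor gene EGR1 (1.08). For several of these the solvent array at 20 h stood above the solvent array at 4 h. EGR1 read 5.75 in DMSO 4 h, 6.87 in DMSO 20 h and 6.84 in CPT 4 h, and IER2 read 4.30, 5.35 and 6.03 on these arrays. FOS read 3.95 in DMSO 4 h, 4.71 in DMSO 20 h and 5.10 in CPT 4 h, with 4.00 and 4.47 at 1 and 2 h. Against DMSO 20 h the 4 h differences were −0.03 for EGR1, 0.39 for FOS and 0.68 for IER2, compared with 1.12 for JUN, 1.68 for EGR2 and 2.51 for CCN2. ATF3, a stress transcription factor gene, was within the threshold (0.90), at 4.46 in DMSO 4 h, 3.80 in DMSO 20 h and 5.36 in CPT 4 h. It was past it with the mean of probe sets (1.16), the stricter filter on dim probe sets (1.67), both DMSO arrays as control (1.23) and by the median of its probe set differences, and read 0.39 with no filter and 0.36 on B, F and T probe sets. The lowest member was KLF6 (−0.45).

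**Figure D3:**
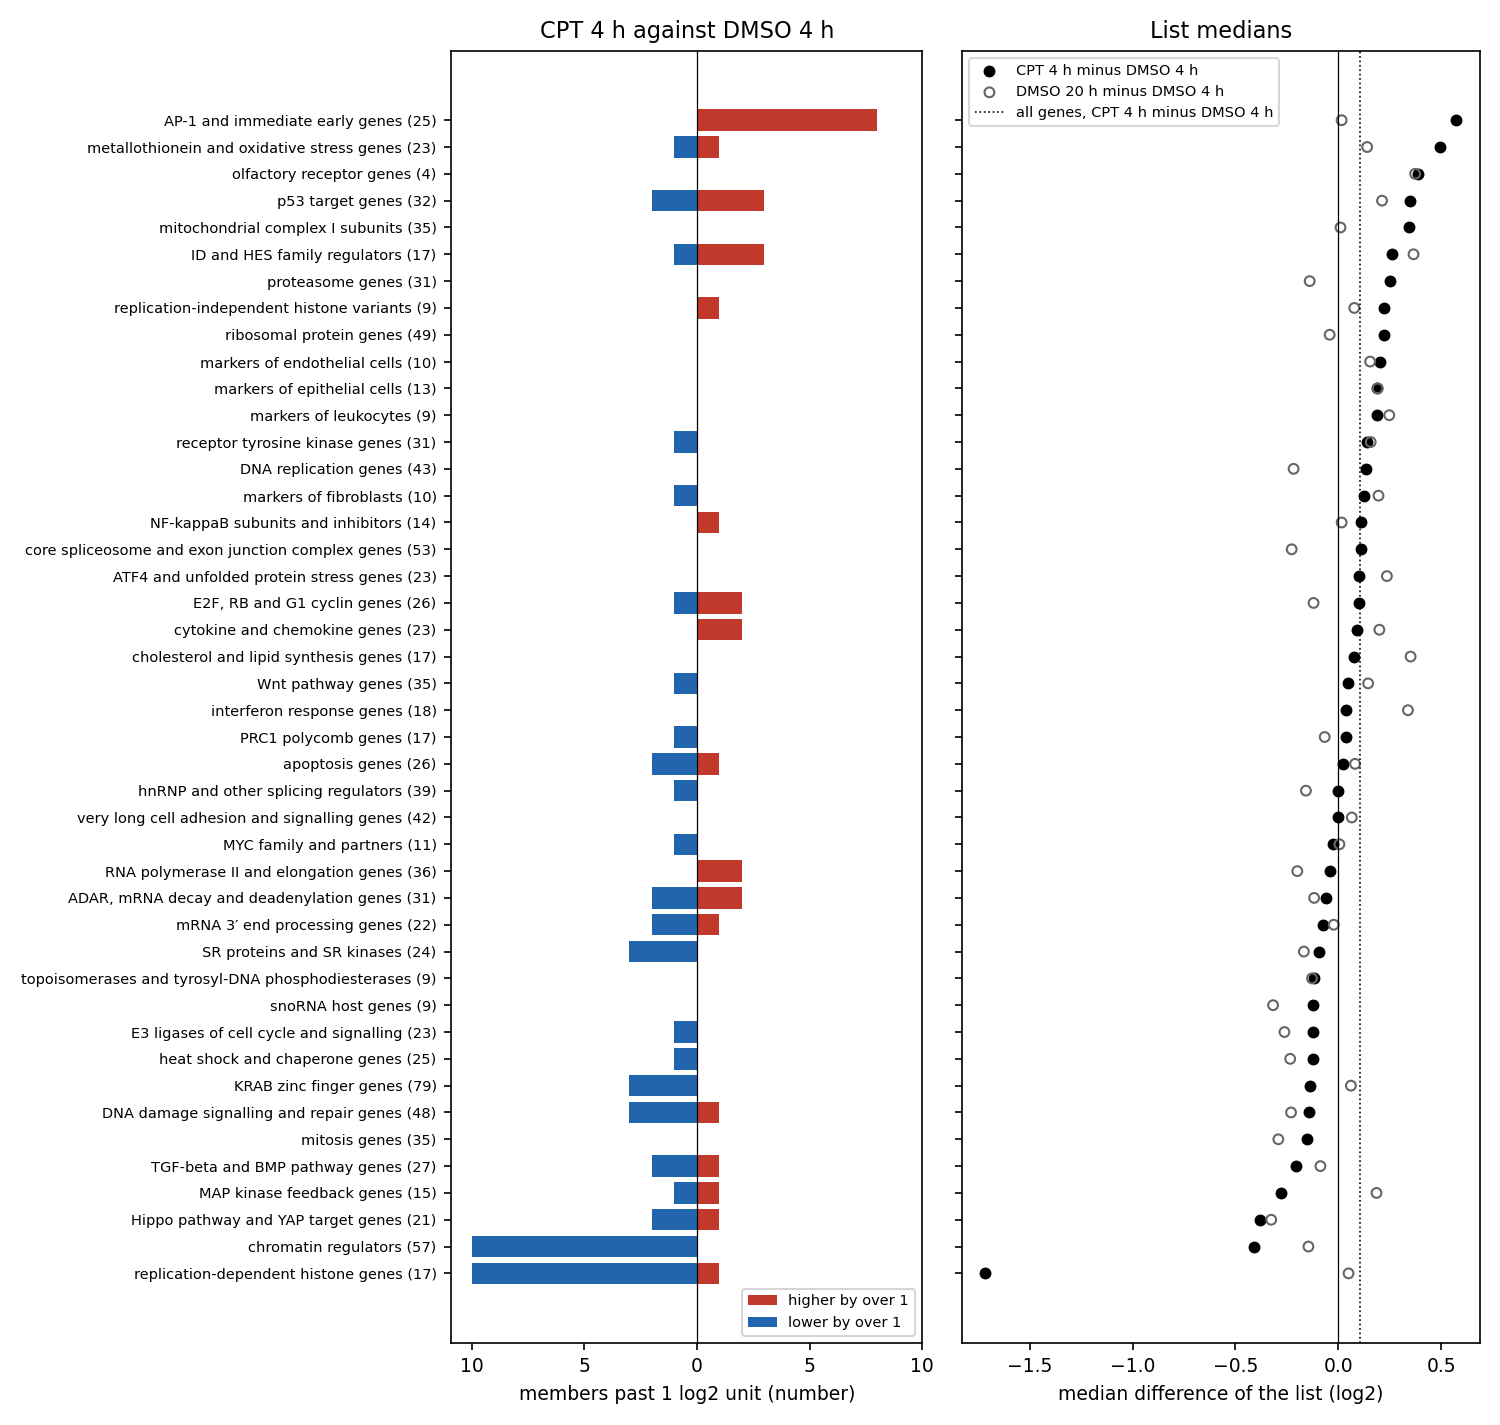
Left, the number of genes of each list that were higher (red) or lower (blue) by over 1 log2 unit, with the number measured in brackets. Right, each list's median log2 difference for CPT 4 h minus DMSO 4 h (filled) and DMSO 20 h minus DMSO 4 h (open), with the all-gene median of 0.10 dotted; replication-dependent histone genes (−1.72) and chromatin regulators (−0.41) are lowest, and immediate early genes (0.57) highest.

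The higher genes outside these lists were of mixed function. SGK1, a kinase gene of stress and steroid responses, had the broadest support, with 105 probe sets of which 93.3% were higher. It stood at 3.11 and 3.12 in DMSO, 3.28 and 3.94 at 1 and 2 h, 5.53 at 4 h, and 5.88 and 6.64 at 15 and 20 h. The 4 h difference of 2.42 was thus 5.35-fold, with DMSO arrays that agree to 0.01. NFKBIZ, which encodes an inhibitor and cofactor of NF-kappaB, read 3.78 and 3.73 in DMSO and 4.25, 5.24, 5.26, 4.88 and 4.62 in CPT, highest at 2 and 4 h. It was the 1 gene of 14 NF-kappaB subunits and inhibitors past the threshold. TOB1, an antiproliferative gene whose protein recruits mRNA deadenylases, read 7.01 and 7.50 in DMSO and 6.96, 7.62, 8.63, 9.41 and 9.65 in CPT. HBEGF, a ligand of the EGF receptor, read 4.12 and 3.90 in DMSO and 4.40, 5.36, 5.41, 6.26 and 6.30 in CPT. Both of these continued upward after 4 h.

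Further large increases were ANKRA2 (2.16), an ankyrin repeat gene with 31 probe sets, THAP2 (2.33), of the THAP zinc finger family, with 7, and LY6G5C (2.02), of the LY6 family, with 25. TSPAN31 (1.58), a tetraspanin gene, TMEM128 (1.72) and CNTD1 (1.65) had at least 20 probe sets each. SERF1A (1.49) is a member of a duplicated gene pair that the array may not separate. With no filter on dim probe sets each of these was within 1: ANKRA2 0.27, THAP2 0.21, LY6G5C 0.06, TSPAN31 0.66, TMEM128 −0.01, CNTD1 0.50 and SERF1A 0.27. ANKRA2 and THAP2 read 2.76 and 2.59 in DMSO 4 h, below the limit of 2.95 on a probe set's mean. CIRBP-AS1, an antisense gene at the CIRBP locus, was higher by 2.14 on 3 probe sets, and whether those read 1 strand is not given in the sources used here. EID2B was the second largest increase (2.49), but 33.3% of its 3 probe sets were higher and the median of their differences was −0.09. GCG, the glucagon gene (1.85), MMP10, a matrix metalloprotease gene (2.09), PANX3, a pannexin gene (2.01), NMUR2, a neuropeptide receptor gene (1.85), SSMEM1 (2.16) and ELMOD1 (2.46) rest on 3 to 19 probe sets. In this order the medians of their probe set differences were 2.83, 0.46, 0.34, 1.61, 1.48 and 1.19. ELMOD1 read 2.72 in DMSO 4 h and 6.06 in DMSO 20 h, so that CPT 4 h, at 5.18, lay between the solvent arrays.

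Genes of the DNA damage answer were mostly within the threshold at 4 h. The shares past it over all genes were 1.39% higher and 1.74% lower. Of 32 measured p53 target genes 3 were higher, the pro-apoptotic gene BBC3 (1.07), ZMAT3 (1.03) and the secreted factor gene GDF15 (1.01), and 2 were lower, PPM1D (−1.42), a phosphatase that opposes p53, and FBXW7 (−1.17), a ubiquitin ligase gene. The list median was 0.35 beside 0.21 for DMSO 20 h minus DMSO 4 h. CDKN1A, the cell cycle inhibitor p21, read 5.27 in DMSO 4 h, 5.67 in DMSO 20 h and 5.69 in CPT 4 h, before 7.08 and 7.33 at 15 and 20 h. Its 4 h difference was 0.42, and 1.01 with no filter on dim probe sets. Against DMSO 20 h the 4 h differences were 0.74 for BBC3, 0.19 for ZMAT3 and −0.05 for GDF15. The median of probe set differences at 4 h was 0.46 for BBC3 and 0.30 for ZMAT3. MDM2, the ligase that degrades p53, differed by 0.55, while the median of its 128 probe set differences was −0.20. Of 48 DNA damage signalling and repair genes 3 were lower, the translesion polymerase gene REV1 (−1.78), FANCM (−1.05) and the mismatch repair gene MSH3 (−1.02), and 1 was higher, the end-joining ligase gene LIG4 (1.34). REV1 read 5.51 and 4.90 in DMSO, 4.96 and 4.91 at 1 and 2 h and 3.73 at 4 h. LIG4 read 3.53 and 3.37 in DMSO, 3.41 and 3.62 at 1 and 2 h and 4.86 at 4 h, so that neither stood apart before 4 h. Of 26 apoptosis genes, 1 was higher, BBC3, and 2 were lower, the adaptor gene FADD (−1.25) and BIRC2 (−1.03), an inhibitor of apoptosis.

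The drug's target and the genes that repair it stayed within the threshold, as did most genes. Over all genes 3.13% were past 1, 1.39% higher and 1.74% lower. In lists of the sizes below, 0 members past 1 is near that share, and nothing is read from these counts. TOP1 read 7.90 in both DMSO 4 h and CPT 4 h, and TDP1, whose enzyme removes trapped TOP1 from DNA, differed by −0.39. None of the 9 topoisomerase and tyrosyl-DNA phosphodiesterase genes was past 1. CASP2 (0.00) and RBM8A (0.23) were within it too. The same holds for lists of mitosis (35 genes, WEE1 farthest at −0.90), DNA replication (43 genes, POLD3 farthest at −0.93), ribosomal proteins (49 genes, RPL19 farthest at 0.75), the proteasome (31 genes, PSMB6 farthest at 0.58) and mitochondrial complex I (35 genes, NDUFS8 farthest at 0.97). Their medians were −0.15, 0.14, 0.22, 0.25 and 0.35. In other settings WEE1 (−1.11, filter on the 2 arrays), POLD3 (−1.02, centred arrays) and NDUFS8 (1.05, B, F and T probe sets) were past 1. Other lists with 0 members past 1 were interferon response, unfolded protein stress, cholesterol synthesis, snoRNA host and very long adhesion genes, led by IRF2 (0.98), CHAC1 (0.79), MVK (0.48), SNHG5 (−0.31) and ERC1 (−0.93). Of these IRF2 (1.37) and CHAC1 (1.04) were past 1 on B, F and T probe sets and ERC1 (−1.02) with centred arrays. Single members past the threshold were RYBP (−1.32) of the PRC1 polycomb genes and HSF2 (−1.31), a heat shock factor gene. HSF2 differed by −1.08 between the solvent arrays, and CPT 4 h minus DMSO 20 h was −0.23. In mRNA decay SMG1 (−1.18) and CNOT4 (−1.16) were lower and TOB1 and ZFP36L2 (1.01) higher. In the RNA polymerase II list HEXIM1 (1.02), an inhibitor of the elongation factor P-TEFb, and the subunit gene POLR2K (1.09) were higher.

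The remaining lists held a few members on either side. Over all genes 1.39% were higher and 1.74% lower. In most lists of this size 1 member is already a larger share than that, and nothing is read from these counts. The higher share was 17.6% for ID and HES family regulators and the lower share 3.80% for KRAB zinc finger genes. Among 17 ID and HES family regulators, HES1 (1.20), a repressor in Notch signalling, SNAI1 (1.07) and ID3 (1.03) were higher and TGIF1 was lower. Among 26 E2F, RB and G1 cyclin genes, CDKN2B (1.36), a cyclin-dependent kinase inhibitor on 4 probe sets, and E2F5 (1.09) were higher and E2F3 was lower. SPRY2 (1.37), an inhibitor of growth factor signalling, was the 1 higher and ERRFI1 the 1 lower gene of 15 MAP kinase feedback genes. SPRY2 read 4.05 and 5.04 in DMSO and 5.38, 3.85 and 5.43 at 1, 2 and 4 h, so its early CPT arrays overlapped the solvent arrays. Of 23 cytokine and chemokine genes HBEGF and CXCL1 (1.01) were higher. Of 23 metallothionein and oxidative stress genes MT1M (1.38), a metal-binding protein gene, was higher and the zinc exporter gene SLC30A1 (−1.08) lower, with a list median of 0.50. KRAB zinc finger genes, a large class of repressors, had 3 of 79 members lower and 0 higher, namely ZNF14 (−1.16), ZNF92 (−1.09) and ZNF492 (−1.02), and a median of −0.14. MYC was the 1 gene past the threshold of 11 in its family, FGFR2 of 31 receptor tyrosine kinase genes and FBXW7 of 23 listed E3 ligase genes, and 0 of 4 measured genes of a list of olfactory receptors were. Of all 34 tested olfactory receptor genes, counted by symbol after their values were seen, 2 were higher (OR10G4 and OR6F1) and 2 lower (OR51I1 and OR51M1), with a median of 4 probe sets a gene.

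Markers of the line's own type and of other cell types were read as a check of the labels. Of the probe sets of 13 epithelial markers 60.3% were above the dim-row limit, against 34.9% for endothelial, 34.9% for leukocyte and 42.7% for fibroblast markers. The limit is the median of all probe sets, so 1054470 of 2108940 were above it. Lists not tied to a cell type ran from 35.5% (very long adhesion genes) to 82.2% (ribosomal proteins), so these shares do not name a cell type. The array values hold no true 0, so absence cannot be read from them. At 4 h the epithelial list had a median of 0.19 with 0 members past 1, the endothelial list 0.20 and the leukocyte list 0.19, also with 0 each. In lists this small that is near the share over all genes, 3.13%. Of 10 fibroblast markers 1 was lower, THY1 (−1.12), which read 5.46 in DMSO 4 h and 3.47 in DMSO 20 h beside 4.35 in CPT 4 h. The list median was 0.12. The leukocyte marker CD68 (0.91) was past 1 with the stricter filter (1.28), the filter on the 2 arrays (1.01) and B, F and T probe sets (1.24).

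Lower genes were longer than tested genes at large, and higher genes shorter. The median length was 58.6 kb for lower genes, 9.26 kb for higher genes and 28.8 kb for all tested genes with a length. Among genes under 5 kb 4.28% were higher and 1.20% lower. From 50 to 100 kb 0.315% were higher and 2.56% lower, and from 100 to 200 kb these were 0.581% and 3.43%. Over 200 kb the share of lower genes was 1.91%, below the class before it, and 0.239% were higher. For DMSO 20 h minus DMSO 4 h, which shares the DMSO 4 h array, the higher share went from 2.65% under 5 kb to 0.717% over 200 kb, while the lower share lay between 0.319% and 0.748% in every class. Longer genes had more probe sets up to 200 kb, with a median of 16 per gene under 5 kb and 67 from 100 to 200 kb, and its part in these shares was not tested. Among genes in the middle and upper terciles of level the lower share was 1.19% under 5 kb and 4.89% from 100 to 200 kb.

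**Figure D4:**
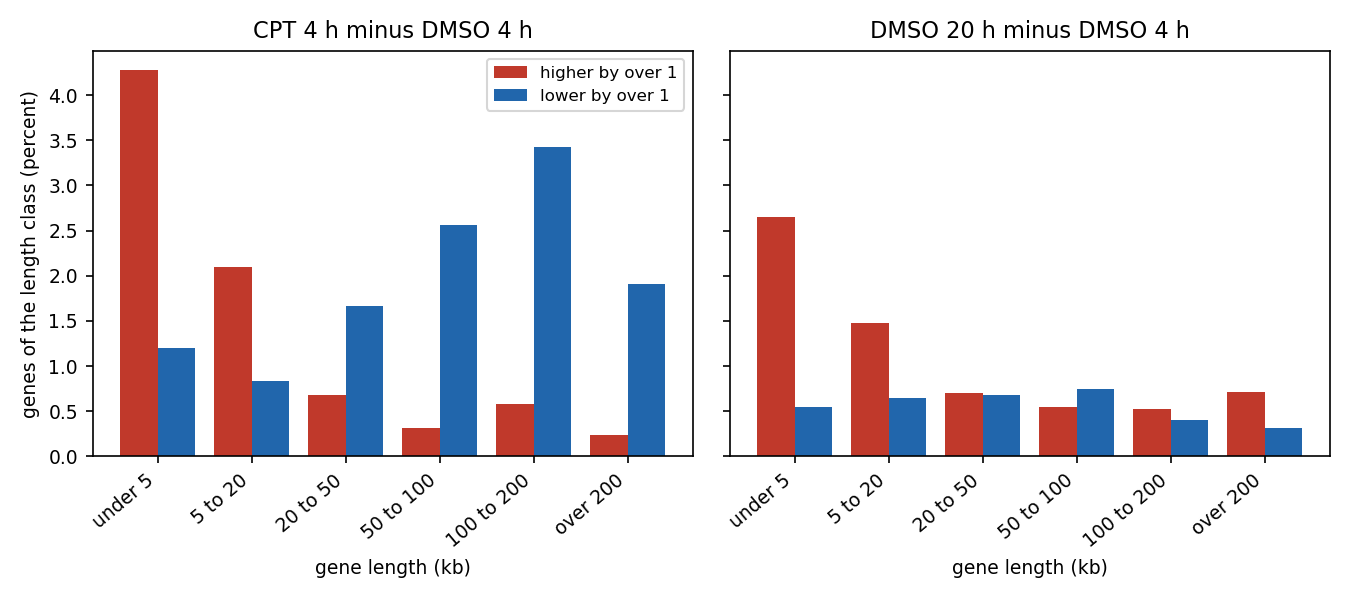
Percent of genes in each gene length class (kb) that were higher (red) or lower (blue) by over 1 log2 unit, for CPT 4 h minus DMSO 4 h (left) and DMSO 20 h minus DMSO 4 h (right), which share the DMSO 4 h array. At 4 h of CPT the higher share is largest under 5 kb (4.28%) and the lower share largest from 100 to 200 kb (3.43%).

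How firmly a call is supported depends on its probe sets. Higher genes had a median of 12 probe sets, lower genes 42 and all genes 43. Of genes with 3 or 4 probe sets 7.48% were higher and 3.65% lower, and of those with 50 and over 0.250% and 1.72%. For DMSO 20 h minus DMSO 4 h the higher share was 7.12% with 3 or 4 probe sets, close to that of the CPT comparison. With at least 20 probe sets a gene, 83 of 12205 genes were higher and 207 lower, beside 50 and 60 for the solvent pair. The median of a gene's own probe set differences was past 1 the same way for 64 of the 224 higher genes and 158 of the 281 lower genes.

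Arrays outside the 4 h pair give another reading of the same genes. Against DMSO 20 h, the CPT 4 h array was lower by over 1 for 98 of the 281 lower genes and higher by over 1 for 62 of the 224 higher genes. These counts share the CPT 4 h array with the choice of the genes, and the shares over all genes were 1.31% and 0.929%. On the CPT 1, 2 and 4 h arrays together, 124 of the 281 lower genes (44.1%) were below both DMSO arrays on all 3, against 9.04% of all genes, and 81 of the 224 higher genes (36.2%) above both, against 12.8%. Since 1 CPT array and 1 DMSO array of that reading chose the genes, nothing is read from it.

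CPT at 1, 2 and 20 h and DMSO at 20 h enter neither side of the 4 h difference, though the filter on dim probe sets used the mean of all 7 arrays and so drew on them too. With that filter on the 2 compared arrays alone, the share of 4 h calls with the same sign on CPT 1 and 2 h minus DMSO 20 h was 61.2%, beside 60.0% here. For the mean of CPT 1 and 2 h minus DMSO 20 h, 22 of the 281 lower genes (7.83%) were lower by over 1, beside 0.514% of all genes, and 13 of the 224 higher genes (5.80%) were higher by over 1, beside 0.396%. Most genes were close to 0 there: the median was −0.16 for lower and 0.04 for higher genes, and the sign was that of the 4 h difference for 180 (64.1%, beside 54.8% of all genes below 0) and 123 (54.9%, beside 45.2% above 0). The listed histone genes had a median of −2.11 on these arrays, chromatin regulators −0.06 and immediate early genes 0.00. The histone genes were thus low before 4 h, whereas for these 2 lists the early medians stood near that of all genes, −0.04. For CPT 20 h minus DMSO 20 h, 140 lower genes (49.8%, beside 11.5%) were lower by over 1 and 85 higher genes (37.9%, beside 6.53%) were higher by over 1. The sign was that of the 4 h difference for 237 lower genes (84.3%, beside 36.6% of all genes below 0) and 182 higher genes (81.3%, beside 63.4% above 0). In the opposite direction past 1 there were 13 and 6. The list medians were −1.42 for histone genes, −0.80 for chromatin regulators and 0.73 for immediate early genes.

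**Figure D5:**
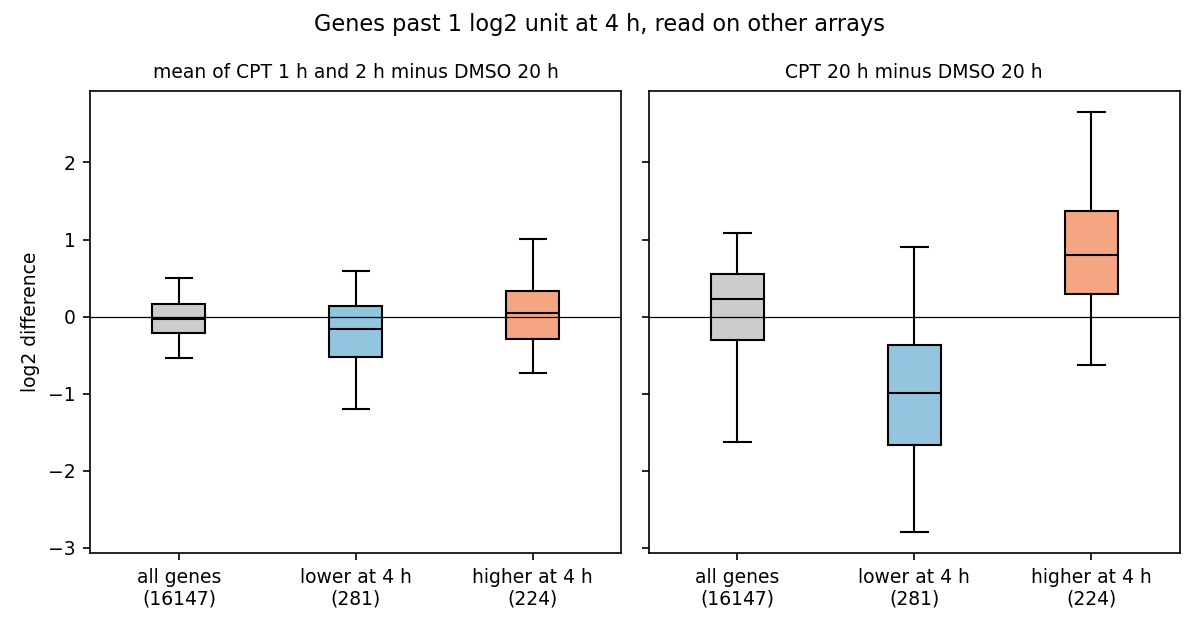
Log2 differences of all 16147 genes and of the genes lower or higher at 4 h, on arrays outside the 4 h pair, which entered the filter on dim probe sets but not the 4 h difference; boxes span the quartiles with the median as a line, and whiskers run from the 5th to the 95th percentile. The mean of CPT 1 and 2 h minus DMSO 20 h (left) has medians of −0.16 and 0.04 for lower and higher genes, and CPT 20 h minus DMSO 20 h (right) −0.99 and 0.79.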

How the data were processed

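The values are log2 probe set values that the authors deposited as the value table of the series, 1 column for each of the 7 arrays and 2108940 probe sets. The submitters' processing notes name RMA, Partek 6.08 and R 2.11.1, without a role or order. How background was corrected and probes were summarised, and against which genome build, is not given in the sources used here. Per the labels' protocols, total RNA was amplified and labelled with biotin.

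Computed here, with Python 3.11.15, numpy 2.4.6 and pandas 2.3.3: probe sets whose mean over the 7 arrays was above the median of all probe sets (2.95) were kept, 1054470 in all. A gene's level is the median of its kept probe sets that share the NCBI Gene ID, where there were at least 3. Of 20649 gene numbers 17646 had a symbol in the array annotation, 17412 were found in the RefSeq gene table of GRCh38.p14, and 133 with a disagreeing and 23 with a shared symbol were left out. Gene lengths came from that table and covered 99.0% of tested genes. The array's build is not named, so lengths only rank genes. Gene levels were computed on simulated data with known differences first, as a test of the steps. Precision is limited by the number of arrays. No test was possible with 1 array a side.

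The genes named are the 15 largest differences each way, the 10 largest with at least 20 probe sets, up to 4 members past 1 of each of 44 gene lists or else the farthest from 0, the genes nearest the threshold, and TOP1, TDP1, CASP2, RBM8A, CDKN1A, MDM2, MYC, FOS, EGR1 and ATF3. Other list members are named after their values were seen. The members and lists were chosen with earlier results of these data known. Promoter sequences are RefSeq's for GRCh38.p14. Alternatives were the mean of probe sets, no filter or a stricter one, a filter on the 2 arrays, at least 10 probe sets, quantile re-normalization, centring, both DMSO arrays as control, and B, F and T probe sets only. The median of probe set differences and the inclusion of unlisted gene numbers were added after seeing the data.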

Additional observations from a re-analysis of the deposited data

Results flagged for a closer look

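For 5 named genes the 4 h and 20 h comparisons with the solvent of the same time pointed in opposite directions by over 1 log2 unit. Each comparison has 1 array a side, and the difference between them was not tested. FBXW7 was lower at 4 h (−1.17) and higher at 20 h (1.03), on 64 probe sets, and read 4.04 in CPT 4 h and 5.77 in CPT 20 h beside 5.22 and 4.74 in the solvent arrays. ZNF14, a KRAB zinc finger gene, differed by −1.16 at 4 h and 1.16 at 20 h on 8 probe sets, with solvent levels of 4.47 and 4.50. THY1 (−1.12, then 1.25), SLC30A1, a zinc exporter gene (−1.08, then 2.41), and ELMOD1 (2.46, then −2.74) had solvent arrays that differed from each other by −1.99, −1.38 and 3.34, and rest on 7, 3 and 3 probe sets.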

How the results depend on the processing

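No test was run, so alternatives are compared by their values, and the cause was not tested where one moved. No paired analysis was possible because each group has 1 array. The count of 224 higher genes was 81 with the mean of probe sets, 137 with no filter on dim probe sets and 138 with at least 10 probe sets. It was 110 against the mean of both DMSO arrays and 84 with the median of probe set differences. With the stricter filter it was 297, and 271 on B, F and T probe sets. The count of 281 lower genes was 172, 170 and 169 with the mean, with no filter and against both DMSO arrays, and centring gave 158 higher and 388 lower. These counts are not of the same genes. Of the 505 genes called, 137 were still called with no filter, 219 with the mean and 222 by probe set differences. Of those measured, 201 of 411 were still called with the stricter filter and 296 of 451 on B, F and T probe sets. More stayed with quantile re-normalization (454) and centring (439). The all-gene median was 0.030 with no filter. The histone median of −1.72 was 0.16 with no filter, and otherwise −1.42 (mean), −2.81 (stricter filter), −2.05 (filter on the 2 arrays), −2.67 (at least 10 probe sets), −1.81 (centred), −1.76 (both DMSO arrays), −2.24 (B, F and T) and −1.61 (probe set differences). The lower share over 200 kb, 1.91%, was 1.20%, 0.632%, 2.87% and 1.12% with the mean, no filter, centring and probe set differences. With no filter H2BC18 (0.38), H4C8 (0.33), H2AC6 (0.62), BDNF (0.065), THY1 (0.25), ZFP36L2 (−0.048), CDKN2B (−0.052), TMEM128 (−0.011), NMUR2 (−0.053), MMP10 (−0.022), ELMOD1 (−0.019) and EID2B (−0.20) turned sign. So did ZNF14 (0.71) and PANX3 (−0.013) with the stricter filter, THEM5 (−0.038), GCG (−0.098) and MMP10 (−0.17) on B, F and T probe sets, and MOB1B (0.016) and EID2B (−0.092) by probe set differences. Of 97 named genes past 1, 22 stayed past it the same way in every setting that measured them: DKK1, H1-2, H2BC15, EPC1, H2BC21, AMD1, JMJD1C, CHD1, E2F3, AJUBA, EPC2, CLK1, RBM5, MYC and CHD2 on the lower side and JUN, NFKBIZ, TOB1, EGR2, CIRBP-AS1, SGK1 and H2AJ on the higher side. All settings keep the DMSO 4 h array in the control. Against DMSO 20 h alone E2F3 (−0.91), AJUBA (−0.43), CLK1 (−0.79) and MYC (−0.84) were within 1, and the rest of the 22 were past it. H1-2, H2BC15 and CIRBP-AS1 rest on 5, 7 and 3 probe sets and were not measured in the setting of at least 10. EGR2 and CIRBP-AS1 were not measured with the stricter filter. EGR2 read 2.44 in DMSO 4 h, below the limit of 2.95 on a probe set's mean.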

Other observations

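Some families that were in none of the lists, or in part of one, stood out among the genes past 1, and were chosen after their values were seen. Of 407 genes named ZNF, which encode zinc finger proteins and mostly transcription factors, 20 were lower (4.91%, beside 1.74% of all genes) and 2 higher (0.491%, beside 1.39%). Their median was −0.03. The lower ones included ZNF217, ZNF148 and ZNF292. Of 45 USP genes, which encode deubiquitinating enzymes, 5 were lower (11.1%, beside 1.74% of all genes) and 0 higher: USP36, USP37, USP38, USP42 and USP53. Of 8 NBPF genes 5 were lower (62.5%, beside 1.74% of all genes), with a median of −1.07. But these are near-identical copies on a few stretches of the genome and may not be independent readings. Of 18 genes of the mitochondrial ATP synthase 2 were higher (11.1%, beside 1.39% of all genes). These were ATP5MC1 and ATP5MC2, which encode the same mature subunit, and the family median was 0.42.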
